A study of Mus musculus with 6 samples.

Results

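Csf1r, the gene of the receptor for colony-stimulating factor 1, and the genes of its 2 ligands, Csf1 and Il34, were examined in RNA-sequencing of NIH/3T3 cells, an immortalized line of mouse embryonic fibroblasts. The 3 genes were taken by symbol from a table of 18001 genes. Csf1r was chosen by its log2 fold change in the comparison described here, which was among the highest, so its own change is given as a description with no test, while Csf1 and Il34 were included for their function. The siAldoa group received pooled siRNAs that target Aldoa, the gene of the glycolytic enzyme aldolase A, and the siCtrl group received pooled non-targeting siRNAs. Both groups were grown in the same serum-containing medium and harvested after 48 h, with 3 libraries of poly(A) RNA per group. Values are CPM, the reads of a gene scaled to an adjusted size of its library, since they sum to 987420 to 1015220 per library. At totals of 3692341 to 3771129 reads, 3 reads correspond to 0.786 to 0.822 CPM. Aldoa itself was at 522, 536 and 545 CPM in siCtrl and at 62.9, 69.2 and 72.0 CPM in siAldoa. Replicate 3 of each group stood apart from replicates 1 and 2, with a chi-square per degree of freedom between the reads of 2 libraries of 1.97 to 3.03 for pairs with replicate 3 and of 1.12 in siCtrl and 1.11 in siAldoa for replicates 1 and 2.

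CSF1R is a class III receptor tyrosine kinase, of the same family as the PDGF receptors, KIT and FLT3. It is best known from monocytes, macrophages, microglia and osteoclasts, whose survival and differentiation depend on it. Binding of a ligand dimerizes the receptor, which then recruits adaptors and activates the PI3 kinase, MAP kinase and STAT pathways. Fibroblasts and other stromal cells are a known source of CSF1, whereas IL34 is known chiefly from neurons and keratinocytes. In a bulk sample, a change in the number of cells that hold an mRNA and a change in the amount per cell cannot be told apart.

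The Csf1r gene (ENSMUSG00000024621) spans bases 61100598 to 61132149 of chromosome 18 in GRCm38 (mm10), on the plus strand and in 24 exon blocks. Its mRNA was near the detection limit in siCtrl, with 1.37, 0.547 and 1.06 CPM in replicates 1, 2 and 3, which are 5, 2 and 4 reads. In siAldoa it was at 8.64, 7.75 and 7.33 CPM, from 32, 29 and 28 reads. The lowest siAldoa library was thus above the highest siCtrl library, as was the case for 16.7% of all genes. The siCtrl mean was 0.992 ± 0.415 CPM and the siAldoa mean 7.91 ± 0.666 CPM (SD, n = 3 each). From 11 reads in siCtrl and 89 reads in siAldoa, the ratio was 7.96, with a 95% interval of 4.24 to 16.5 that covers counting error only. The log2 fold change on the log2(CPM + 1) scale was 2.18 (standard error 0.254).

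In the order of the log2 fold change over all genes, Csf1r stood at position 3. The pair just above it were the proliferin genes Prl2c2 and Prl2c3, which encode secreted hormones of the prolactin family, with log2 fold changes of 3.35 and 2.99. Just below it stood Cp, which encodes the copper-carrying ferroxidase ceruloplasmin, at 1.99 and the alpha-arrestin gene Arrdc4 at 1.94. This position depended on the scale. With a pseudocount of 0.1 the log2 fold change of Csf1r was 2.95 and its position 18. On reads, edgeR gave 2.95 at position 67 and DESeq2 2.99 at position 59. Csf1r was at percentile 18.7 of all genes by mean CPM in siCtrl and at percentile 41.1 in siAldoa.

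Csf1 (ENSMUSG00000014599), on chromosome 3 from 107741048 to 107760469 on the minus strand, encodes the ligand first described as macrophage colony-stimulating factor. It was abundant, with 804, 820 and 777 CPM in siCtrl and 836, 803 and 821 CPM in siAldoa. The ranges of the groups overlapped, and the means were 801 ± 21.8 CPM and 820 ± 16.5 CPM (SD, n = 3 each). The log2 fold change was 0.03 (95% interval -0.03 to 0.10), with a limma adjusted p of 0.54 over all genes and a two-sided exact permutation p of 0.4, where 0.1 is the smallest that 3 against 3 libraries allow. One alternative changed this call. Quantile normalization gave a log2 fold change of 0.12 with a limma adjusted p of 0.021.

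Il34 (ENSMUSG00000031750), on chromosome 8 from 110741829 to 110805924 on the minus strand, encodes interleukin 34, a ligand unrelated to CSF1 in sequence that binds the same receptor. Its mRNA was at 16.7, 12.6 and 15.9 CPM in siCtrl and at 12.4, 15.0 and 13.9 CPM in siAldoa. The groups overlapped here as well, with means of 15.1 ± 2.18 CPM and 13.8 ± 1.28 CPM (SD, n = 3 each). The log2 fold change was -0.12 (95% interval -0.44 to 0.21, limma adjusted p = 0.68, exact permutation p = 0.4). The 167 siCtrl reads and 155 siAldoa reads gave a ratio of 0.913 with a counting interval of 0.729 to 1.14, so a modest change of Il34 in either direction was not detectable at this depth. Of the 3 genes, Csf1r alone had groups that did not overlap, and it was chosen by its change in this same comparison, unlike the ligands.

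**Figure D1:**
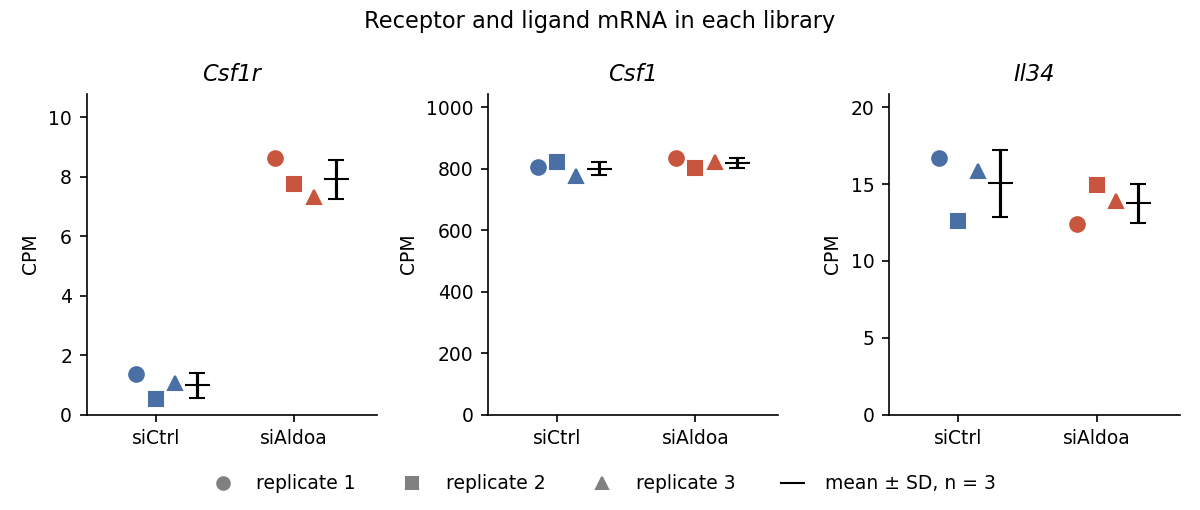
CPM (vertical axes, linear from 0, a separate scale for each gene) of Csf1r, Csf1 and Il34 in the siCtrl (blue) and siAldoa (red) libraries, with the marker giving the replicate number and the black bar the mean ± SD of 3 libraries. The siAldoa libraries lie between 7.33 and 8.64 CPM for Csf1r, all above the siCtrl libraries, while the groups overlap for both ligands.

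Levels of different genes were compared per kb of annotated exons. On this scale Csf1 was the most abundant of the 3 in every library, at 147 to 158 CPM per kb, and Il34 followed at 6.34 to 8.53 CPM per kb. Csf1 mRNA was therefore 17.9 to 25.0 times as abundant as Il34 mRNA. Csf1r was at 0.0948 to 0.237 CPM per kb in siCtrl and at 1.27 to 1.5 CPM per kb in siAldoa. The order Csf1, Il34, Csf1r was the same in all 6 libraries, with no overlap between neighbours in the order. Per kb, the level of Csf1 was 642 to 1639 times that of its receptor in siCtrl and 106 to 122 times in siAldoa. The corresponding range for Il34 was 36.0 to 67.8 in siCtrl and 4.24 to 5.69 in siAldoa.

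The reads at the Csf1r locus share ground with another gene. The last 873 exon bases of Csf1r, 15.1% of its exon bases, are also exon of Hmgxb3 on the opposite strand. The library kit keeps strand information, but whether counting used it is not stated in the sources used here, so reads in this stretch cannot be assigned with certainty. Hmgxb3, which encodes an HMG-box protein, was at 56.7, 61.0 and 51.3 CPM in siCtrl and at 62.3, 61.5 and 66.5 CPM in siAldoa. On the log2 scale it differed by 0.17 (SE 0.078, limma adjusted p = 0.14), and its part in the Csf1r reads was not tested. Apart from this overlap, no other gene's transcript matched a Csf1r transcript at 90% identity over 200 bases. The nearest match on the same strand was Kit, a receptor of the same family, at 75.6% identity. Il34 shares 75 and 22 exon bases with a pair of antisense genes that are not in the table used here.

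The gene adjacent to Csf1r on its upstream side is Pdgfrb, which lies 15.5 kb away on the same strand and encodes PDGF receptor beta, a class III receptor that fibroblasts use to respond to PDGF. Pdgfrb was at 23.8, 23.3 and 19.6 CPM in siCtrl and at 46.4, 49.7 and 53.7 CPM in siAldoa, so that every siAldoa library was higher. Its rise on the log2 scale was 1.14 (SE 0.103, limma adjusted p = 2.0e-08), and it passed the threshold under every alternative tried. Over all genes, 10.4% were called higher and 10% lower in siAldoa at an adjusted p under 0.05. Among the other genes around Csf1r, Tcof1, which encodes the nucleolar protein treacle, fell by 0.45 on the log2 scale (limma adjusted p = 7.2e-07). Slc26a2, a sulfate transporter gene, had a log2 fold change of -0.04 (limma adjusted p = 0.81). Camk2a and Pde6a, known from neurons and photoreceptors, were at 0 to 2.19 CPM and did not pass the test. Csf1r and Pdgfrb were thus adjacent, and none of the other 5 genes around Csf1r was called higher.

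The neighbours of the ligand genes behaved differently from gene to gene. Next to Csf1, Ahcyl1 fell by 0.19 on the log2 scale (limma adjusted p = 2.1e-04), while 4 others did not pass the test. Next to Il34, Mtss1l lies 0.428 kb away on the opposite strand and encodes an actin-binding protein. It was at 22.7, 23.0 and 17.5 CPM in siCtrl and at 41.8, 38.8 and 39.3 CPM in siAldoa, a log2 fold change of 0.90 (limma adjusted p = 2.7e-06). The other 5 neighbours of Il34 did not pass the test.

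**Figure D2:**
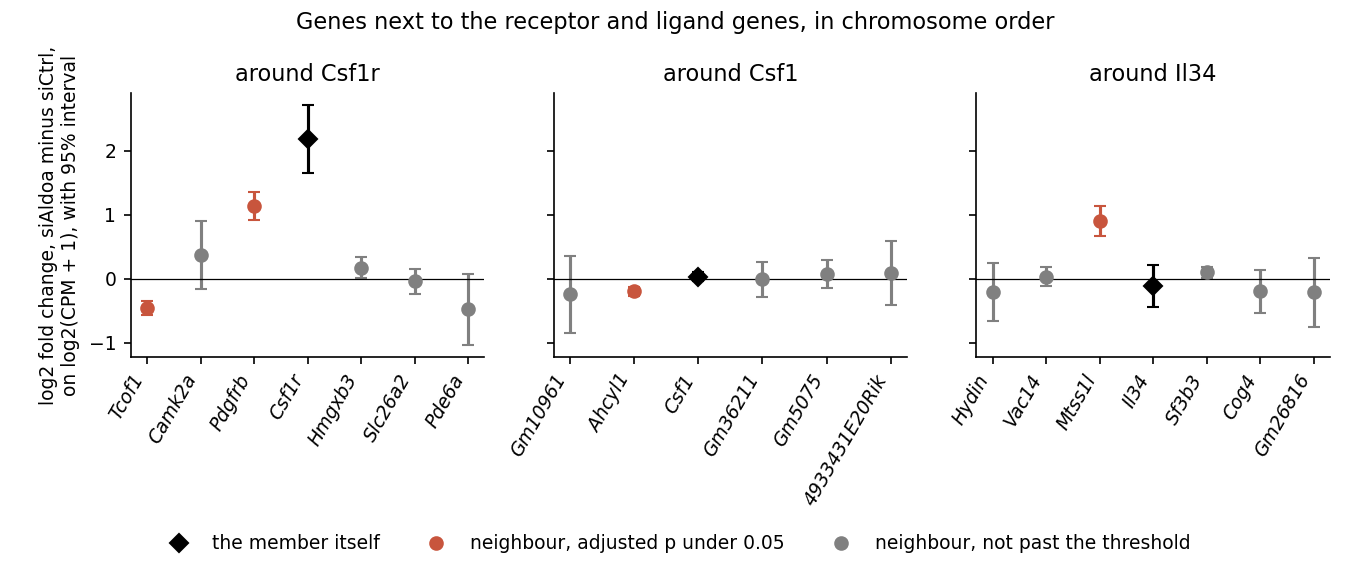
Log2 fold change between siAldoa and siCtrl (vertical axis, log2(CPM + 1) scale, bars are 95% intervals) for genes of the table among the 3 nearest on each side of Csf1r, Csf1 and Il34, in chromosome order and not to distance. Csf1r at 2.18 and Pdgfrb at 1.14 are the highest points of the left panel, and Mtss1l at 0.90 is the highest of the right one.

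Within the class III receptor family, 2 of the 3 other members in the table were called higher in siAldoa, against 10.4% of all genes, and none lower, with a median log2 fold change of 0.50 against -0.0023 over all genes. Besides Pdgfrb, Pdgfra, which encodes PDGF receptor alpha, had 32.9, 36.4 and 32.8 CPM in siCtrl and 48.0, 48.6 and 48.7 CPM in siAldoa. It rose by 0.50 on the log2 scale (SE 0.087, limma adjusted p = 1.6e-04). Flt3, the receptor of hematopoietic progenitors, was at 0.265 to 0.548 CPM in siCtrl and 0.262 to 1.07 CPM in siAldoa, too few reads to show a difference. Kit was not analysed here. None of the 5 ligands of these receptors in the table was called. Pdgfa, with 70.9, 65.7 and 69.1 CPM in siCtrl and 64.0, 61.2 and 53.9 CPM in siAldoa, came nearest to it (log2 fold change -0.20, limma adjusted p = 0.070), and with the filter on low values its adjusted p from limma was 0.0498. Pdgfc was at 76.3 to 86.4 CPM and Kitl, the KIT ligand, at 208 to 227 CPM over both groups. Flt3l and Pdgfd were at or under 1.06 CPM in every library.

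Among receptor tyrosine kinases as a whole, 5 of 43 other than Csf1r were called higher and 7 lower. This is 11.6% and 16.3%, against 10.4% and 10% of all genes, and the median log2 fold change was -0.0078. The 4 largest rises were those of Pdgfrb, Egfr (log2 fold change 0.93), Pdgfra and Fgfr1 (0.50). The fifth, Epha2 at 0.29, is named here after its value was seen. The largest falls were those of Epha5 at -0.74, Epha4 at -0.48, Ror2 at -0.41 and Styk1 at -0.40, the last 3 of which lost their calls when single libraries were left out. By mean CPM per kb, Csf1r was number 32 of 44 receptors in siCtrl and number 24 in siAldoa. At 1.37 CPM per kb in siAldoa it was just under Egfr, the receptor for epidermal growth factor, at 1.45, and above Epha5 at 1.01.

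**Figure D3:**
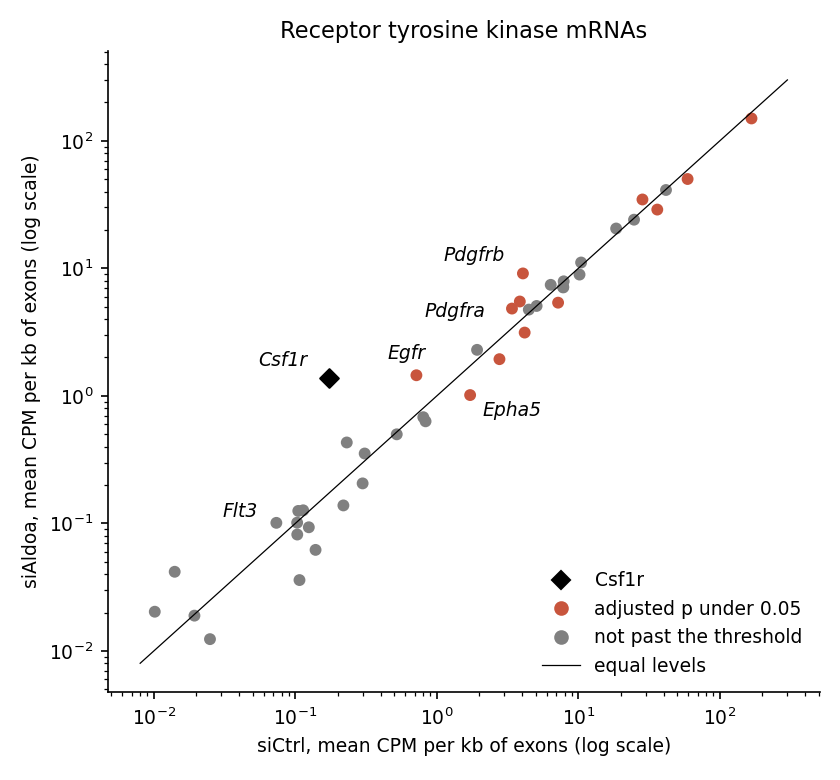
Mean CPM per kb of exons in siCtrl (horizontal axis, log scale) and siAldoa (vertical axis, log scale) for 44 receptor tyrosine kinase genes, each a point, with red for an adjusted p under 0.05. Csf1r (black diamond) rests at 0.172 in siCtrl and 1.37 in siAldoa, above the line of equal levels, and Pdgfrb at 4.06 and 9.12.

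Proteins that bind the ligands or shed the receptor and its ligand from the membrane were looked at next. Sdc1, which encodes syndecan 1, a binding partner of IL34, fell from 134 ± 5.17 to 117 ± 1.92 CPM (SD, n = 3 each), a log2 fold change of -0.19 (limma adjusted p = 0.014). This call was lost when replicate 1 or 2 of either group was left out. Trem2, a myeloid receptor gene listed here with the IL34 binding partners, was at 3.83, 2.19 and 2.12 CPM in siCtrl and at 4.86, 5.35 and 4.45 CPM in siAldoa. Its groups did not overlap, but its limma adjusted p was 0.057, and it was 0.028 without replicate 1 of siCtrl. Of 10 genes for ADAM proteases, their rhomboid partners and gamma-secretase, 2 were called higher, against 10.4% of all genes, and none lower. Ncstn, which encodes the gamma-secretase subunit nicastrin, rose by 0.27 on the log2 scale (limma adjusted p = 0.0022). Adam17, which encodes the protease that sheds CSF1R and membrane-bound CSF1, had a log2 fold change of 0.26 (limma adjusted p = 0.016) and lost its call without replicate 1 or 3 of siCtrl or replicate 1 or 2 of siAldoa.

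Of 10 transcription factors known to act on the Csf1r promoter or its intronic enhancer in myeloid cells, 7 were in the table, and 3 of these were called higher, against 10.4% of all genes, and none lower. Runx1, which binds the enhancer, was at 33.1, 33.6 and 33.1 CPM in siCtrl and at 47.8, 51.0 and 49.5 CPM in siAldoa. It rose by 0.56 on the log2 scale (SE 0.086, limma adjusted p = 3.5e-05). Ets1 had a log2 fold change of 0.18 (limma adjusted p = 0.013), a call that was lost without replicate 3 of siCtrl or replicate 2 of siAldoa. Cebpb, named here after its values were seen, had 24.3 to 33.6 CPM in siCtrl and 32.9 to 43.7 CPM in siAldoa, so its groups overlapped (log2 fold change 0.41, limma adjusted p = 0.016), and it lost its call without replicate 1 or 2 of siCtrl or replicate 2 or 3 of siAldoa. Ets2, Jun, Fos and Sp1 did not pass the test. Spi1, which encodes PU.1, Cebpa and Irf8 were not analysed here.

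Downstream of the receptor, 6 of 36 signalling genes were called higher and 4 lower. This is 16.7% and 11.1%, against 10.4% and 10% of all genes, and the median log2 fold change of the 36 was 0.053. Without replicate 3 of siAldoa the count of calls was 6 in place of 10. Among the called genes whose groups did not overlap, the transcription factor gene Stat3 rose most, from 72.3, 72.8 and 70.6 CPM in siCtrl to 117, 110 and 123 CPM in siAldoa (log2 fold change 0.69, limma adjusted p = 1.7e-08). Dok2, an adaptor gene named here after its values were seen, had a larger log2 fold change of 0.95 (limma adjusted p = 0.024), from 0 to 0.821 CPM in siCtrl and 0.81 to 2.14 CPM in siAldoa, so its groups overlapped. Its call was lost without replicate 1 or 3 of siCtrl or replicate 2 or 3 of siAldoa. After Stat3 came Stat5a at 0.64, the Src family kinase gene Yes1 at 0.41 and the PI3 kinase catalytic subunit gene Pik3ca at 0.27. Stat5a lost its call without replicate 3 of siAldoa and Pik3ca without replicate 1 of siAldoa. Pik3cb, another catalytic subunit, fell by 0.47 (limma adjusted p = 5.4e-06), and smaller falls were those of Grb2, an adaptor, and the kinase gene Akt1, each at a log2 fold change of -0.18. The call of Grb2 was lost whichever library was left out. Lyn and Ptpn6, a kinase and a phosphatase gene typical of blood cells, were at or under 1.37 CPM in every library.

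**Figure D4:**
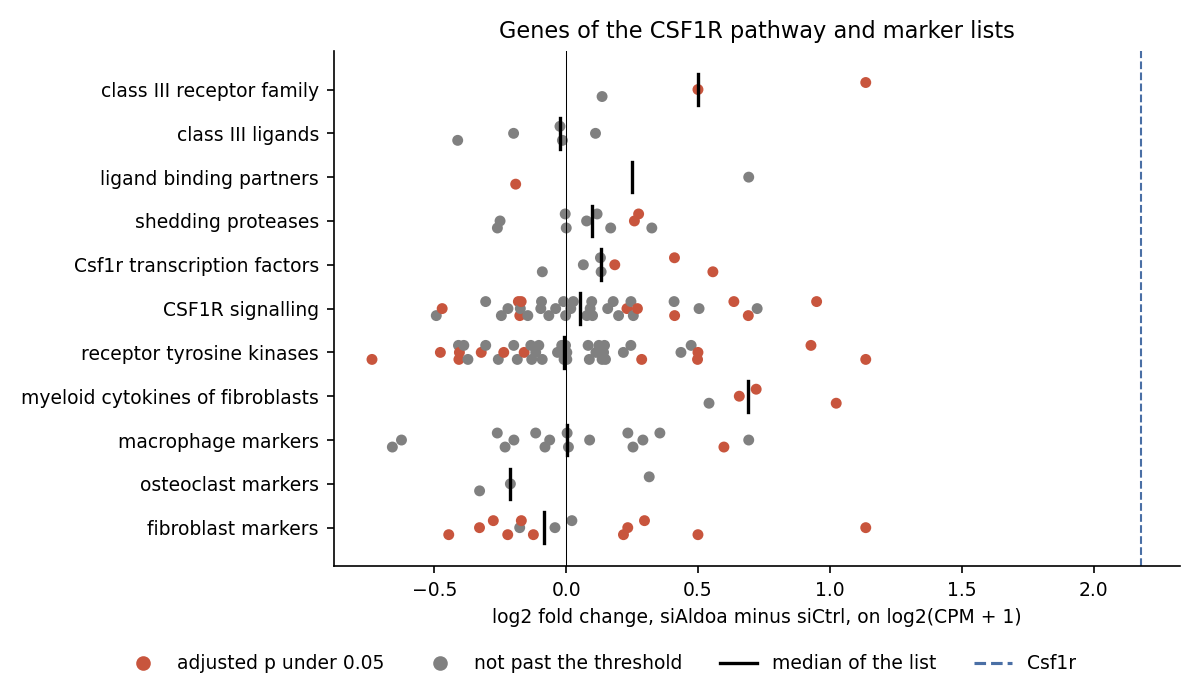
Log2 fold change between siAldoa and siCtrl (horizontal axis, log2(CPM + 1) scale) of each gene in 11 lists, 1 list per line, with red for an adjusted p under 0.05, a black bar for the list's median and a dashed line for Csf1r at 2.18. No gene of the lists reaches the dashed line, and the highest point is Pdgfrb at 1.14.

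Macrophages and osteoclasts are the cells in which Csf1r is usually found, and their other markers were measured in the same libraries. Of 35 macrophage marker genes 17 were in the table, 8 of them with a mean of at least 1 CPM. Of the 17, 1 was called higher (5.88%) and none lower, against 10.4% and 10% of all genes. Their median log2 fold change was 0.0037. Their summed level was 32.3 to 41.9 CPM in siCtrl and 41.6 to 48.1 CPM in siAldoa. Of the defining markers, Adgre1, which encodes F4/80, was at 0.821 to 1.59 CPM in siCtrl and 0.535 to 1.05 CPM in siAldoa. Ptprc, which encodes the leukocyte antigen CD45, was at 0.547 to 3.01 CPM and 1.07 to 1.35 CPM, and Aif1 at 0 to 1.64 CPM and 0 to 0.802 CPM. Spi1 and Tyrobp were not in the table used here, for a reason that is not known, so their levels cannot be told. The same holds for the other listed markers that were absent. The one called marker was Cd14, an endotoxin co-receptor gene, at 14.5, 10.1 and 12.4 CPM in siCtrl and 16.2, 20.3 and 20.9 CPM in siAldoa (log2 fold change 0.60, limma adjusted p = 0.0086). That call was lost without replicate 2 of siCtrl or without replicate 2 or 3 of siAldoa. By mean CPM per kb in siAldoa, Csf1r at 1.37 was below Cd14 at 11.1, Lyz2 at 3.44 and Tmem119 at 2.00, and above the other 14 markers. In siCtrl, Csf1r at 0.172 was below Cd14, Lyz2 and Tmem119 too. There it was also below Cd68, Fcer1g, Aif1, Trem2, Cx3cr1, Adgre1, Msr1 and Fcgr1, at 0.281 to 2.15. The osteoclast markers Ctsk, Calcr and Tnfrsf11a were at or under 1.34 CPM in every library, and none passed the test.

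**Figure D5:**
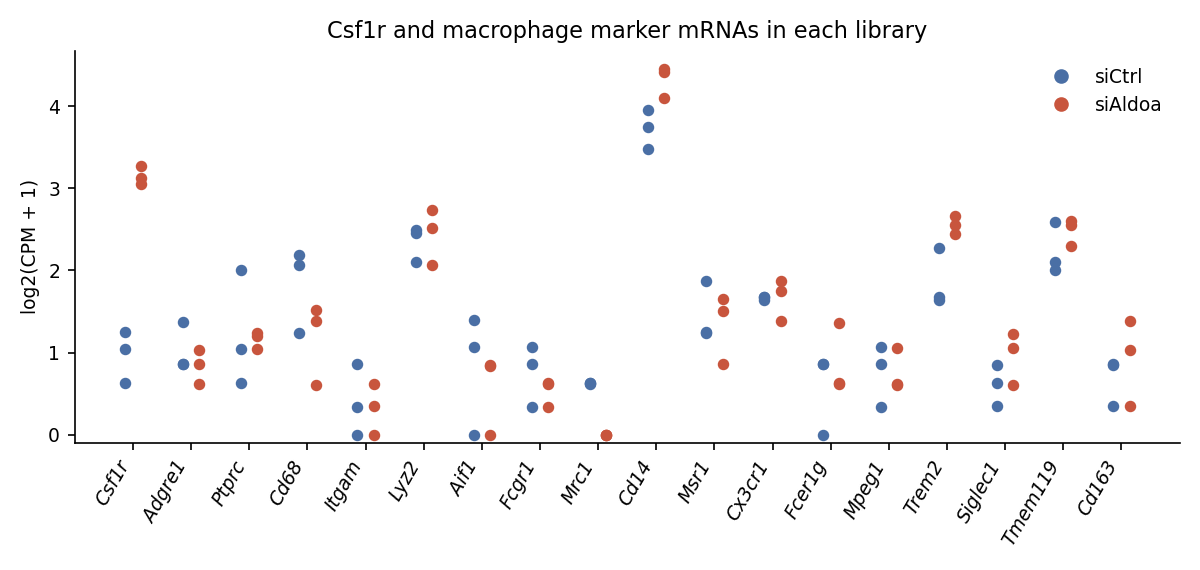
Level in each library (vertical axis, log2(CPM + 1)) of Csf1r and of the 17 macrophage markers in the table, with siCtrl in blue and siAldoa in red. The siAldoa points of Csf1r, Cd14 and Trem2 lie above their siCtrl points. Those of Mrc1, at 0 CPM, lie below siCtrl points of 0.529 to 0.548 CPM. The groups overlap for Adgre1, Ptprc and Aif1.

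Fibroblast markers were abundant in all libraries. The 14 of 16 in the table summed to 15885 to 16475 CPM in siCtrl and to 13480 to 14162 CPM in siAldoa. Of these, 5 were called higher and 6 lower, which is 35.7% and 42.9%, against 10.4% and 10% of all genes. The mean was at least 10 CPM for 13 of the 14. Besides the PDGF receptors, Fn1, Thy1 and Prrx1 were higher, by 0.30, 0.23 and 0.22 on the log2 scale, Prrx1 being named after its value was seen. The collagen genes Col1a2 and Col1a1 fell by 0.45 and 0.33. Of 10 genes for cytokines and related proteins that fibroblasts use to act on myeloid cells, 4 were in the table. Among these 4, 3 were called higher, against 10.4% of all genes. Il6, the other, was at 0.274 to 1.89 CPM over both groups and was not called (limma adjusted p = 0.18). Ccl7, a monocyte chemoattractant gene, was at 6.30, 5.74 and 7.41 CPM in siCtrl and 11.3, 14.4 and 17.3 CPM in siAldoa (log2 fold change 1.02, limma adjusted p = 3.6e-04). Lif, which encodes leukemia inhibitory factor, rose by 0.66 (limma adjusted p = 5.8e-04). Tnfrsf11b, which encodes the osteoclast inhibitor osteoprotegerin, had a log2 fold change of 0.72 (limma adjusted p = 0.042) and lost its call whichever library was left out.

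Genes with the most similar pattern to Csf1r over the 6 libraries were ranked by Pearson's r of log2(CPM + 1) among 14652 other genes with a mean of at least 1 CPM. The highest were Kctd16, Cdo1, which encodes cysteine dioxygenase, Nfxl1, Atp6ap1, which encodes a subunit of the vacuolar proton pump, and Rbm33, with r between 0.998 and 0.999. All 5 were higher in every siAldoa library, for example Rbm33 with 98.3, 91.6 and 94.7 CPM in siCtrl and 139, 137 and 134 CPM in siAldoa. The libraries fall into 2 groups, so r mostly reflects the difference between the groups and is given as a description. Pdgfrb had r = 0.961 at position 375 and Pdgfra r = 0.937 at position 737, whereas Csf1 had r = 0.463 and Il34 r = -0.27.

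Replicate 3, which stood apart, was also left out of both groups. The log2 fold change of Csf1r was then 2.26, that of Csf1 0.01 and that of Il34 -0.08. Pdgfrb was still called at 1.00 (limma adjusted p = 0.014), while Pdgfra at 0.47 was not (limma adjusted p = 0.054). With only 2 libraries left per group, 1014 genes in all passed the threshold in place of 3676, and 3 receptor tyrosine kinases and 3 signalling genes were among them. Runx1 and Stat3 kept their calls, and Ccl7 and Lif did not.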

How the data were processed

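Poly(A) RNA of 3 siCtrl and 3 siAldoa libraries was sequenced. Per the labels and methods, alignment by the authors was to mm10 with Bowtie2 (version 2.2.7), all libraries were subsampled to 1 size, and reads per gene were deposited as CPM. The annotation, strand use and treatment of multi-mapping reads are not given in the sources used here. A deposited comparison (fold changes and p-values) was not used. Dividing by the CPM of 1 read gave whole reads for 100% of values (tolerance 0.01), and on these edgeR's quasi-likelihood test called 3786 genes. The table held 1834 genes under the stated minimum of 12 reads.

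The siAldoa and siCtrl values on log2(CPM + 1) were tested with limma in R 4.3.3 (limma 3.58.1, mean-variance trend, two-sided). The p-values of all 18001 genes were adjusted by Benjamini-Hochberg and the threshold was 0.05. Alternatives were a pseudocount of 0.1, a filter at the lower quartile of mean CPM, TMM scaling, quantile normalization, no trend, the replicate block, libraries left out, edgeR (version 4.0.16) and DESeq2 (version 1.42.0). The deposited values already carried a scaling factor per library, so TMM scaling, with 3677 genes called, was not an independent check. The script was tested on simulated data. Exon lengths and overlaps came from GENCODE M21, in which 17932 identifiers matched. Intervals of the read ratios cover counting error only, whereas those of the log2 fold changes come from limma's estimate of variance between libraries. The reads carry no molecular identifiers. The libraries are described as biological replicates.

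The members and lists were chosen with earlier results of these data known. The genes named were the members, Aldoa, all genes of lists with up to 6 entries, up to 4 largest rises and falls with groups that do not overlap in longer lists, up to 4 most abundant markers, 3 neighbours per side, 5 genes most like Csf1r, and 2 genes above and below it in rank. Not every gene covered is reported here.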

Additional observations from a re-analysis of the deposited data

How the results depend on the processing

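The difference in Csf1r kept its direction under every alternative, between 2.01 and 2.99 on the log2 scale. It moved beyond the spread between replicates with a pseudocount of 0.1 (2.95), with edgeR (2.95) and with DESeq2 (2.99), which do not add 1 CPM. Il34 passed the threshold under none of them, with log2 fold changes from -0.23 to -0.04. Csf1 passed it with quantile normalization alone (0.12, limma adjusted p = 0.021), and the cause was not tested. The count of genes called was 3676, against 1440 without the mean-variance trend, 2183 with DESeq2, 2625 to 2813 with 1 library left out and 1014 without replicate 3 of both groups, an alternative chosen after seeing the data. Of the receptor tyrosine kinases, 12 were called, against 6 without the trend and 3 to 12 with libraries left out. Of the signalling genes, 10 were called, against 3 without the trend, 6 with DESeq2 and 3 to 10 with libraries left out.

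Same-numbered libraries correlated at 0.03, 0.0135 and 0.134 in their deviations from group means, and different-numbered ones at -0.0943 to 0.0744. Replicate numbers 1 and 2 were thus not shown to pair the libraries. The replicate 3 libraries had the highest value, and each correlated negatively with replicates 1 and 2 of the other group. Whether they share a batch was not tested, and the main fit has no replicate block. With the replicate block, 3170 genes were called and the log2 fold change of Csf1r was 2.18. Over the other named genes and the macrophage list, 131 values lost their calls, 952 stayed as reported and 5 gained a call. These 5 were Pdgfa and Trem2 with the filter on low values, Trem2 without replicate 1 of siCtrl, and Sf3b3 with quantile normalization and without replicate 2 of siCtrl. Without the trend, 27 named genes lost their calls. Directions turned only for genes that were not called. With quantile normalization Kitl was at 0.018. With libraries left out, Kitl ranged from -0.048 to 0.017, Flt3 from -0.054 to 0.30, Pdgfd from -0.23 to 0.13, Lyz2 from -0.059 to 0.27, Vac14 from -0.013 to 0.094, 4933431E20Rik from -0.0014 to 0.23, Gm10961 from -0.42 to 0.11, Gm36211 from -0.12 to 0.11 and Gm5075 from -0.068 to 0.16.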
